A study of Mus musculus with 12 samples.

Results

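The genes described here encode the machinery of mitochondrial oxidative phosphorylation: the subunits of respiratory complexes I to IV, the electron carrier cytochrome c and the ATP synthase, which is also called complex V. They were chosen by symbol alone, as every gene of the array annotation whose symbol starts with Nduf, Uqcr or Atp5, the numbered Cox subunits, the 4 Sdh genes, Cyc1 and Cycs. The rule found 92 genes of the 19087 named genes on the array, and all 92 were measured, by 130 of 41230 features. Complex I had 43 genes, complex II 4, complex III 9, complex IV 18, complex V 17 and cytochrome c 1. Of these, 84 encode structural subunits. The other 8 are 7 assembly factors of complex I with Ndufaf symbols and Cox7a2l, which takes part in the formation of respiratory supercomplexes.

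The cells were Oli-neu, an oligodendroglial line of the mouse. Those used for the arrays, treated and untreated alike, stably expressed PLP-EGFP. For 16 h the cells received either conditioned neuronal medium (cnm), taken from primary cultures enriched in neurons, or the small molecule inhibitor Y27632, spelled Y27631 in the sample labels, and each treatment was compared with untreated parallel cultures on 6 arrays with 2 colours. The treated RNA was in Cy3 on 3 arrays of each treatment and in Cy5 on the other 3. The submitters describe technical replicates, so a p-value here reflects only how far the arrays of 1 cell line lie apart, and this spread may be technical. The labels disagree on one point: the design text places neurons in both arms of the inhibitor experiment, while the labels of its reference channel say only untreated cells.

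Values are standardized log ratios in SD units, in which each array has an SD of 1. The base of the logarithm and the centring are not stated, so a value of 1 is 1 SD of all features on that array and not a fold change. The sign was turned to read treated over untreated, and this direction is likely rather than stated. Of the genes with 1 feature that the study lists as higher with cnm, 16 of 18 were negative as deposited, and of those listed as lower 6 of 6 were positive. For Y27632 the counts were 6 of 6 and 6 of 6. Only ratios were analysed, so levels of cell type markers could not be checked. Arrays of the same dye orientation correlated at 0.859 to 0.890 over all features for cnm and at 0.731 to 0.809 for Y27632. Between opposite orientations the correlation was 0.249 to 0.296 for cnm and -0.262 to -0.120 for Y27632, so that the arrays of the 2 orientations are given apart beside the results where they differ. Other differences between the 2 sets of 3 arrays cannot be told apart from the dye.

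Complexes I and II pass electrons from NADH and succinate to ubiquinone, complex III passes them on to cytochrome c, and complex IV hands them to oxygen. Complexes I, III and IV pump protons across the inner mitochondrial membrane, and complex V uses the gradient to make ATP. All subunits of complex II and most of the others are encoded in the nucleus, and the remaining ones in the mitochondrial genome. Oligodendrocytes need ATP and carbon for the lipids of myelin.

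With cnm, more genes of oxidative phosphorylation fell than rose. Of the 92 genes, 59 fell and 7 rose at an adjusted p under 0.05 (limma, Benjamini-Hochberg adjustment over all genes), while 26 did not pass. Over all genes tested, 36.7% fell and 27.6% rose. The median of the 92 genes was -0.41 SD units, against -0.08 for all genes, and the medians of single arrays ran from -0.62 to -0.13. With the same sign on all 6 arrays, 34 genes fell and 3 rose, where the background was 17.8% and 16.1%. Without the dye term in the model 33 fell and 3 rose, against 16.4% and 14.9% of all genes, and on the Cy3 arrays alone 37 fell and 18 rose, against 27.8% and 28.4%.

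With Y27632 fewer members passed the test. Among the 92 genes 27 rose, 9 fell and 56 did not pass, against a background of 20.5% higher and 19.5% lower. Their median was 0.13, against -0.01 for all genes, and single arrays had medians from -0.10 to 0.44. The same sign on all 6 arrays was kept by 9 genes that rose and 3 that fell, where the background was 10.2% and 9.23%. Without the dye term in the model 4 genes rose and none fell in the limma fit, against 6.46% and 5.58% of all genes, and at an unadjusted p under 0.05 14 were higher and 4 lower, against 14% and 12.5%.

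**Figure D1:**
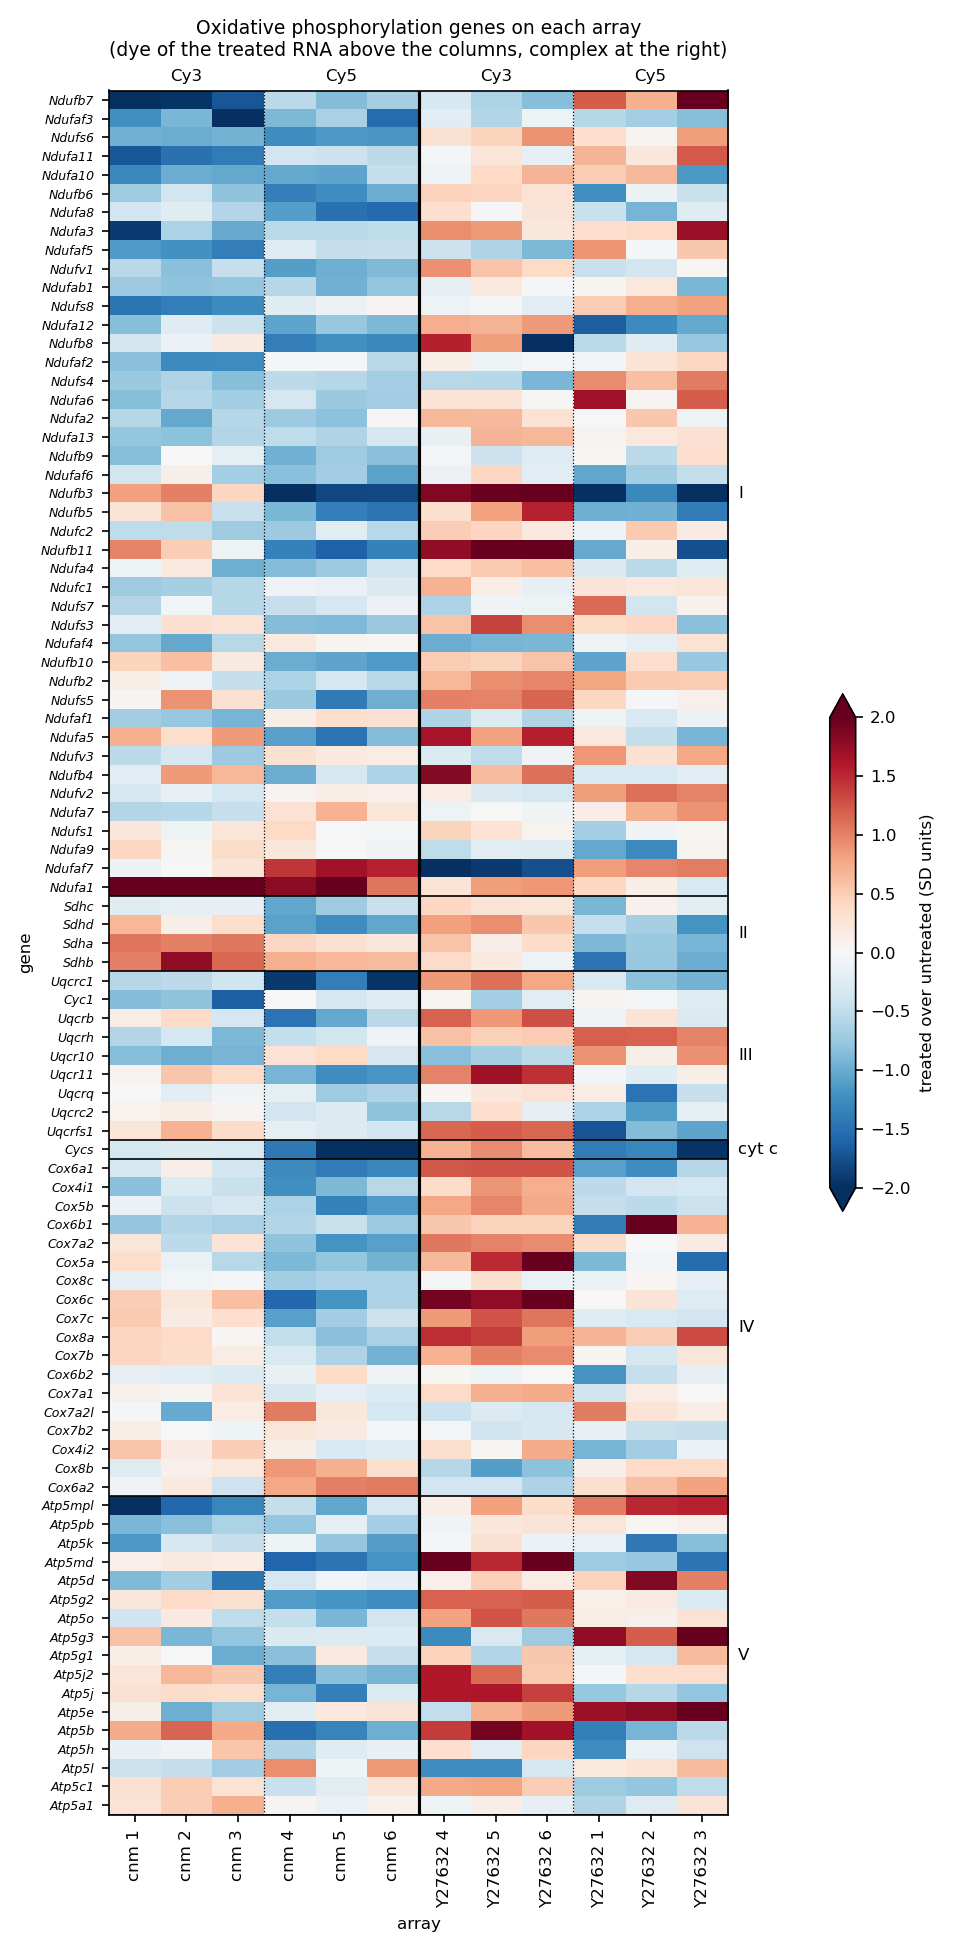
Value of each of the 92 genes (rows, by complex) on each of the 12 arrays (columns, by treatment and by the dye of the treated RNA), in SD units, with colours limited to between -2 and 2. Blue prevails in the cnm columns, and in the Y27632 columns many genes change colour between the Cy3 and the Cy5 arrays.

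Complex I, the NADH dehydrogenase and the largest complex of the chain, had the lowest median among the 5 complexes with cnm, at -0.57. Of its 43 genes 33 fell (76.7%, against 36.7% of all genes), 2 rose (4.65%, against 27.6%) and 8 did not pass. The medians of the single arrays lay between -0.66 and -0.33, below 0 in both dye orientations. Among the 36 structural subunits 27 fell and 1 rose.

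Ndufb7, an accessory subunit, had the lowest value of all 92 genes. Its values with cnm ran from -2.04 to -0.53 with a median of -1.29, and all 6 arrays were below 0. The mean was -1.30 ± 0.68 (SD, n = 6 arrays), with an adjusted p of 1.48e-06 by limma and an exact two-sided sign-flip p of 0.03125, the smallest that 6 arrays allow. With Y27632 the same gene spanned -0.86 to 1.99 and did not pass the test, with negative values on the 3 arrays with treated RNA in Cy3 and positive values on the other 3.

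Ndufs6, a subunit of the electron input module, was among the most even genes across arrays. With cnm its values ran from -1.24 to -0.95 with a median of -1.07, with means of -0.97 and -1.19 in the 2 orientations. The mean was -1.08 ± 0.13 (SD, n = 6 arrays; limma adjusted p = 1.22e-06). With Y27632 its values ran from 0.05 to 0.89, above 0 on each array, with a mean of 0.48 ± 0.33 (limma adjusted p = 0.018). The 2 sets of arrays did not overlap in these values, each the mean of 3 features. With Y27632 the features averaged 0.77, 0.54 and 0.12, and only the first passed (limma adjusted p = 0.0277, over all features). Their lowest arrays were at -0.27, -0.48 and -0.63. The last feature reached -0.33 with cnm, so there the treatments overlapped.

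Assembly factors build complex I without being part of it. Ndufaf3 was below 0 on every array of both treatments, with a range of -2.06 to -0.66 with cnm and of -0.85 to -0.11 with Y27632. It fell in both, to means of -1.22 ± 0.52 (limma adjusted p = 0.000175) and -0.50 ± 0.28 (limma adjusted p = 0.00427). Of the 8 genes that encode no structural subunit, 6 fell and 1 rose with cnm, where 36.7% of all genes fell and 27.6% rose. With Y27632 5 fell and none rose, where 19.5% of all genes fell and 20.5% rose. The gene that rose with cnm, Ndufaf7, a methyltransferase, differed between the orientations: with cnm it averaged 0.04 on the Cy3 arrays and 1.55 on the Cy5 arrays, and with Y27632 -1.95 and 0.95. Its called fall with Y27632, to -0.50, therefore has opposite signs in the 2 orientations.

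Ndufa1, a small membrane subunit, had the highest value of the 92 genes with cnm. It ranged from 1.07 to 3.24 with a median of 2.66 and a mean of 2.44 ± 0.89 (SD, n = 6 arrays; limma adjusted p = 9.61e-07). The rise rested on 1 of its 2 features. That feature averaged 5.19 ± 1.22, while the other averaged -0.30 ± 0.87 and passed the test as lower (limma adjusted p = 0.0474, over all features). Which of the features follows the Ndufa1 transcript was not tested. Without Ndufa1 the median of the remaining 91 genes was -0.41. With Y27632 the features lay closer, at 0.28 and 0.46, and the gene averaged 0.37 ± 0.45 (limma adjusted p = 0.0467), with 1 array below 0.

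With Y27632 the median of complex I was 0.17, and 10 of its genes rose while 6 fell. These were 23.3% and 14%, against 20.5% and 19.5% of all genes. Ndufa3, an accessory subunit, was highest of complex I, between 0.23 and 1.73 with a median of 0.61, at a mean of 0.74 ± 0.56 (limma adjusted p = 0.0168). With cnm the same gene lay between -1.92 and -0.50 and averaged -0.86 ± 0.55 (limma adjusted p = 7.45e-04), so that no array of one treatment reached the values of the other. Ndufa9 was lowest with Y27632, at -0.53 ± 0.52 (limma adjusted p = 0.0363), with 5 of 6 arrays below 0. Ndufaf4, another assembly factor, averaged -0.47 ± 0.55 (limma adjusted p = 0.00472), but its 3 features averaged -1.15, -0.65 and 0.40. Ndufa4, which is grouped here by its symbol although it is also counted with complex IV, fell with cnm to -0.48 ± 0.46 (limma adjusted p = 0.0163) and was at 0.07 with Y27632.

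**Figure D2:**
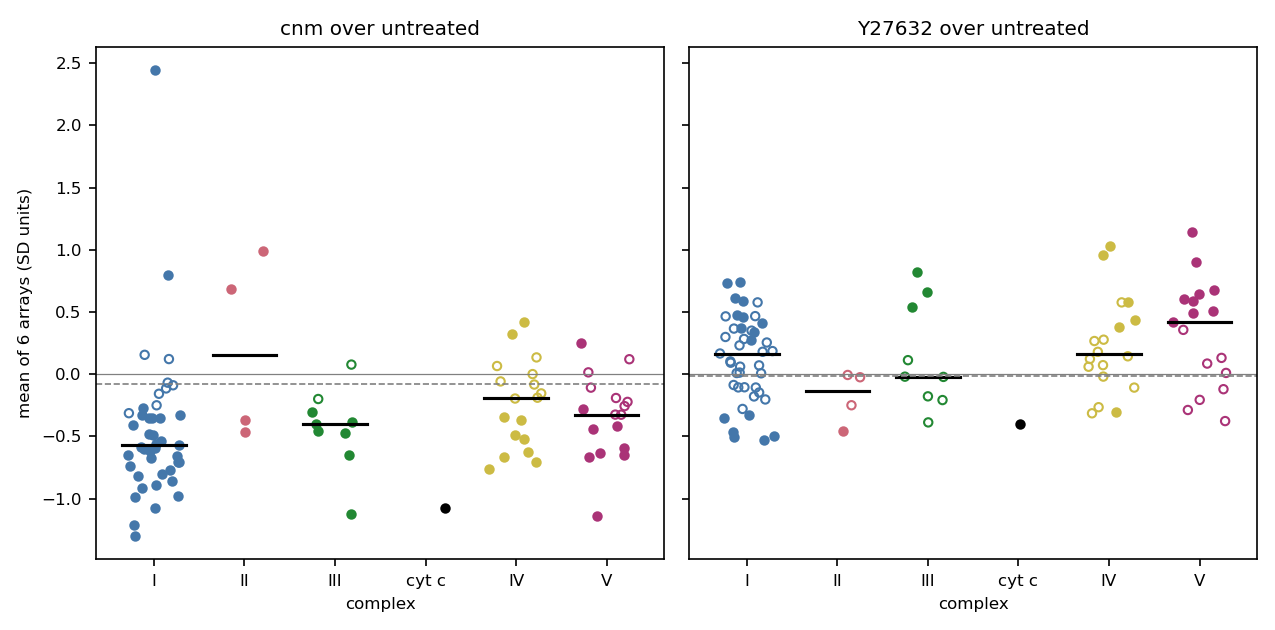
Mean of each gene over 6 arrays in SD units, by complex, for cnm (left) and Y27632 (right), with filled points past the adjusted p, a black line at the median of each complex and a dashed line at the median of all genes. The complex I median lies at -0.57 with cnm and the complex V median at 0.42 with Y27632, which was 0.36 on the Cy3 arrays and 0.04 on the Cy5 arrays.

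Complex II, the succinate dehydrogenase, was divided between its soluble and its membrane subunits with cnm. Sdhb, the iron-sulfur subunit, ranged from 0.63 to 1.77 with a median of 0.86, and rose to a mean of 0.99 ± 0.43 (SD, n = 6 arrays; limma adjusted p = 3.74e-05). Sdha, the flavoprotein that oxidises succinate, ranged from 0.22 to 1.07 and rose to 0.68 ± 0.40 (limma adjusted p = 2.29e-05). Both were above 0 on all 6 arrays. The 3 features of Sdha averaged 1.33, 1.01 and -0.29, so 1 of them went the other way.

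The membrane anchors Sdhc and Sdhd were lower with cnm. Sdhc lay between -1.04 and -0.16, and averaged -0.46 ± 0.35 (limma adjusted p = 0.00132). Sdhd averaged -0.37 ± 0.84 (limma adjusted p = 0.00435), with 0.38 on the Cy3 arrays and -1.12 on the Cy5 arrays, and its exact two-sided sign-flip p was 0.3125. With Y27632 the means of all 4 genes were below 0, from -0.46 for Sdhb, which passed the test, to -0.01 for Sdhd, which did not. Each of the 4 had a positive mean on the Cy3 arrays and a negative one on the Cy5 arrays.

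In complex III, 7 of 9 genes fell with cnm (77.8%, against 36.7% of all genes) and none rose (against 27.6%), with a median of -0.40. Uqcrc1, a core subunit, was lowest, between -1.96 and -0.40 with a median of -0.98. Its mean was -1.13 ± 0.72 (limma adjusted p = 8.2e-06), and it averaged -0.49 on the Cy3 arrays and -1.76 on the Cy5 arrays. Cyc1, the subunit that carries cytochrome c1, averaged -0.65 ± 0.59 (limma adjusted p = 9.91e-04) and was below 0 on each array. Its Cy3 arrays averaged -1.10 and its Cy5 arrays -0.20. With Y27632, 3 of the 9 genes rose (33.3%, against 20.5% of all genes) and none fell (against 19.5%). Uqcrh, the hinge protein, was the highest of them, with 0.48 to 1.20 and a mean of 0.82 ± 0.34 (limma adjusted p = 1.52e-04), and with cnm it averaged -0.45 ± 0.27 (limma adjusted p = 0.00205), below 0 on every array.

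Cytochrome c itself, encoded by Cycs, fell with cnm. Its values ran from -2.08 to -0.29 with a median of -0.89 and a mean of -1.08 ± 0.86 (limma adjusted p = 1.42e-05), and its 3 features averaged -1.37, -1.13 and -0.73. With Y27632 the mean was -0.40 ± 1.29 (limma adjusted p = 0.0208). The arrays did not share a direction there: the Cy3 arrays averaged 0.75 and the Cy5 arrays -1.55.

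Complex IV, the cytochrome c oxidase, has subunits that come as isoforms for different tissues. The isoforms Cox4i2, Cox6a2, Cox6b2, Cox7a1, Cox7b2, Cox8b and Cox8c are known from lung, muscle, heart or testis, and they were set beside the other 10 structural subunits. With cnm, where 36.7% of all genes fell and 27.6% rose, 7 of the 10 fell and none rose, at a median of -0.50. Of the 7 isoforms 1 fell and 2 rose, at a median of 0.07. With Y27632, where 20.5% of all genes rose and 19.5% fell, 5 of the 10 rose and none fell, at a median of 0.41. Of the 7 isoforms none rose and 1 fell, at a median of -0.11. These medians differed between the orientations. For the 10 subunits they were -0.06 on the Cy3 arrays and -0.88 on the Cy5 arrays with cnm, and 1.03 and -0.16 with Y27632, while for the 7 isoforms they were 0.01 and 0.06, and -0.02 and -0.09. Whether the array detected the 7 isoforms above background is not known from ratios.

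The isoform sets did not all run the same way. Cox4i1 fell with cnm, between -1.22 and -0.27 and at -0.71 ± 0.35 (limma adjusted p = 3.97e-04), and Cox4i2 averaged 0.13 ± 0.36 without passing. Cox6a1 fell to -0.76 ± 0.64 (limma adjusted p = 5.33e-05), with -0.20 on the Cy3 arrays and -1.32 on the Cy5 arrays. Cox6a2 rose to 0.42 ± 0.61 (limma adjusted p = 0.00303), but its Cy3 arrays averaged -0.10 and its Cy5 arrays 0.94. Cox6b1 fell to -0.63 ± 0.12 (limma adjusted p = 5.93e-05), while Cox6b2 averaged -0.08 ± 0.25 and did not pass. In these 3 pairs the widely expressed isoform had the lower mean with cnm. In the Cox8 set the mean of the widely expressed Cox8a lay between those of the tissue isoforms Cox8b and Cox8c. Cox8b rose to 0.33 ± 0.41 (limma adjusted p = 0.0137), and Cox8a averaged -0.19 ± 0.55 without passing. Cox8c fell to -0.37 ± 0.32 (limma adjusted p = 8.66e-04) with all 6 arrays below 0. On the Cy3 and the Cy5 arrays Cox8b averaged 0.01 and 0.64, Cox8c -0.08 and -0.65, and Cox8a 0.28 and -0.66. Differences between isoforms were not tested. Cox7a2 fell to -0.52 ± 0.64, with -0.01 on the Cy3 arrays and -1.03 on the Cy5 arrays. Neither Cox7a1, at -0.06 ± 0.24, nor Cox7a2l, at 0.00 ± 0.68, passed. Cox7b averaged -0.15 ± 0.56 and Cox7b2 0.07 ± 0.13, again without passing.

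With Y27632 the highest gene of complex IV was Cox8a, the last of the nuclear subunits by number. It lay between 0.50 and 1.48 with a median of 1.07, above 0 on all 6 arrays, and rose to 1.03 ± 0.41 (limma adjusted p = 6.2e-04). Cox8b averaged -0.27 ± 0.65 and Cox8c -0.02 ± 0.18 with Y27632, neither past the threshold. Cox6c rose to 0.96 ± 1.06 (limma adjusted p = 1.72e-04), yet its Cy3 arrays averaged 1.91 and its Cy5 arrays 0.00. Cox7b rose to 0.43 ± 0.54, again with the Cy3 arrays at 0.88 and the Cy5 arrays at -0.01, whereas Cox7b2 fell to -0.30 ± 0.18 with all 6 arrays below 0.

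Complex V is the ATP synthase. With cnm 8 of its 17 genes fell and 1 rose, or 47.1% and 5.88%, against 36.7% and 27.6% of all genes. The median was -0.32. With the same sign on all 6 arrays 4 fell and none rose, where the background was 17.8% and 16.1%. With Y27632 9 rose and none fell, where 20.5% of all genes rose and 19.5% fell. The median was 0.42, but it was 0.36 on the Cy3 arrays and 0.04 on the Cy5 arrays. Opposite signs in the 2 orientations were found for 9 of the 17 genes, or 52.9%, against 57.3% of all genes. Atp5mpl, a small membrane subunit, was lowest with cnm, between -2.11 and -0.35 with a median of -1.18, at a mean of -1.14 ± 0.67 (limma adjusted p = 5.47e-05). With Y27632 it ran from 0.14 to 1.54 and rose to 0.91 ± 0.58 (limma adjusted p = 6.29e-04). The arrays of the 2 treatments did not overlap for this gene.

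Atp5e, the epsilon subunit of the catalytic head, was the highest of the 92 genes with Y27632. Its values ran from -0.49 to 2.23 with a median of 1.28, and 5 of 6 arrays were above 0. The mean was 1.14 ± 0.99 (limma adjusted p = 0.00146), with an exact two-sided sign-flip p of 0.0625. Atp5e averaged 0.36 on the Cy3 arrays and 1.92 on the Cy5 arrays. With cnm it averaged -0.22 ± 0.52 and did not pass. Atp5a1, the alpha subunit, was the only gene of complex V that rose with cnm, to 0.25 ± 0.31 (limma adjusted p = 0.0184). It averaged 0.50 on the Cy3 arrays and 0.004 on the Cy5 arrays, and its 3 features averaged 0.91, 0.18 and -0.35. Atp5b, the catalytic beta subunit, averaged -0.19 ± 1.21 with cnm, where the Cy3 arrays were at 0.89 and the Cy5 arrays at -1.27.

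The c-ring of the ATP synthase is built from a peptide that Atp5g1, Atp5g2 and Atp5g3 all encode in the same mature form. Only Atp5g2 of the 3 passed with cnm, at -0.44 ± 0.82 (limma adjusted p = 3.3e-04), with opposite signs in the 2 orientations. With Y27632, Atp5g2 rose to 0.59 ± 0.67 (limma adjusted p = 0.0013) and Atp5g3 to 0.49 ± 1.44 (limma adjusted p = 0.0416), while Atp5g1 averaged 0.09 ± 0.52. Atp5g3 had -0.76 on the Cy3 arrays and 1.74 on the Cy5 arrays.

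The dye orientation was compared over all 92 genes. A dye term passed the threshold for 59 of them with cnm and 58 with Y27632, where 58.6% and 53.4% of all genes did. With cnm 46 genes were negative in both orientations, 9 were positive in both and 37 had opposite signs. With Y27632 9 were negative in both, 24 positive in both and 59 had opposite signs. Of all 19087 genes, 5671 were negative in both and 4789 positive in both with cnm. With Y27632 these were 3991 and 4167. Opposite signs were thus found for 40.2% of the 92 genes with cnm and 64.1% with Y27632, against 45.2% and 57.3% of all genes. The median of the genes was -0.26 on the Cy3 arrays and -0.59 on the Cy5 arrays with cnm, and 0.36 and -0.06 with Y27632. The part of the dye in these values was not tested beyond this.

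**Figure D3:**
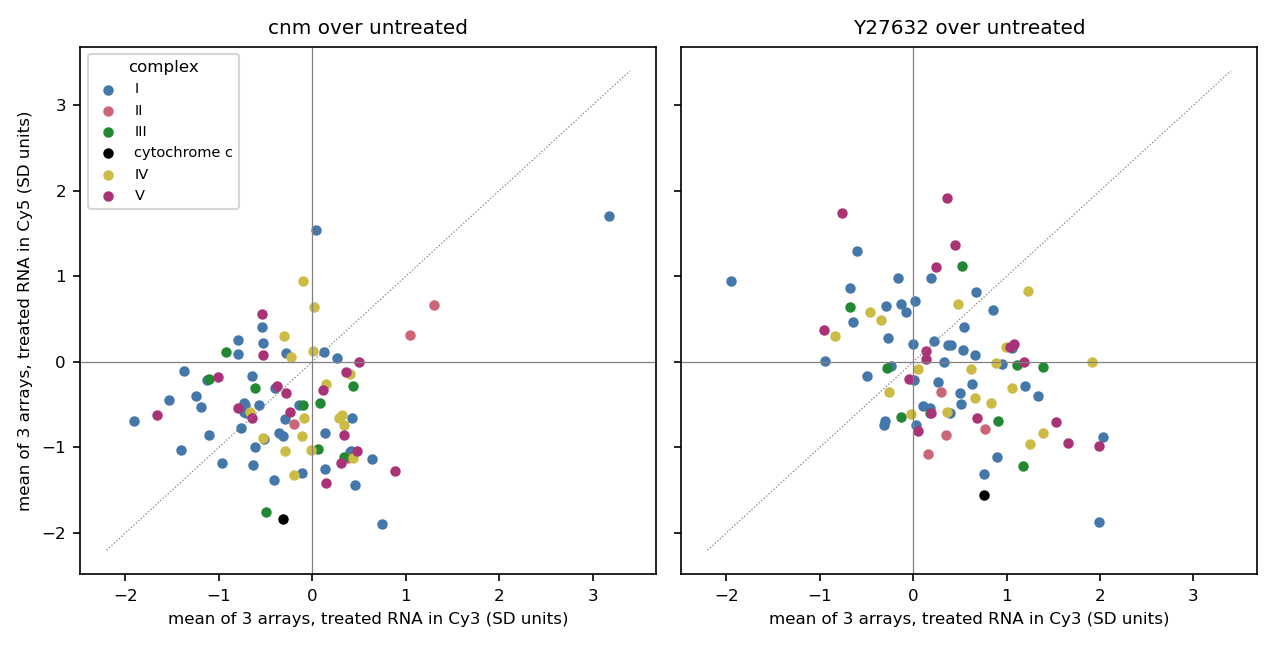
Each gene's mean over the 3 arrays with the treated RNA in Cy3 (horizontal) against its mean over the 3 arrays with it in Cy5 (vertical), in SD units, coloured by complex, with equality dotted. With cnm 46 of 92 genes lie at the lower left, below 0 on both axes, against 5671 of all 19087 genes. With Y27632 59 (64.1%, against 57.3% of all genes) have opposite signs on the axes.

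More than 1 feature was present for 25 of the 92 genes, up to 4 for a gene. The features of a gene had the same sign in 15 of the 25 with cnm and in 15 with Y27632. In 6 genes with cnm and 2 with Y27632, different features passed the test in opposite directions. All features fell in 9 genes with cnm, and all rose in 2 genes with Y27632. The same counts were not made for the other genes with more than 1 feature, so these are not read as particular to the 92 genes. Ndufab1, the mitochondrial acyl carrier protein, had 4 features between -1.60 and -0.40 with cnm, and between -0.67 and 0.71 with Y27632. Ndufv2, a subunit with an iron-sulfur centre, had features at 0.26 and -0.44 with cnm and at 1.02 and -0.20 with Y27632. Ndufc1 had 3 features from -0.76 to -0.17 with cnm and from -0.29 to 0.60 with Y27632.

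**Figure D4:**
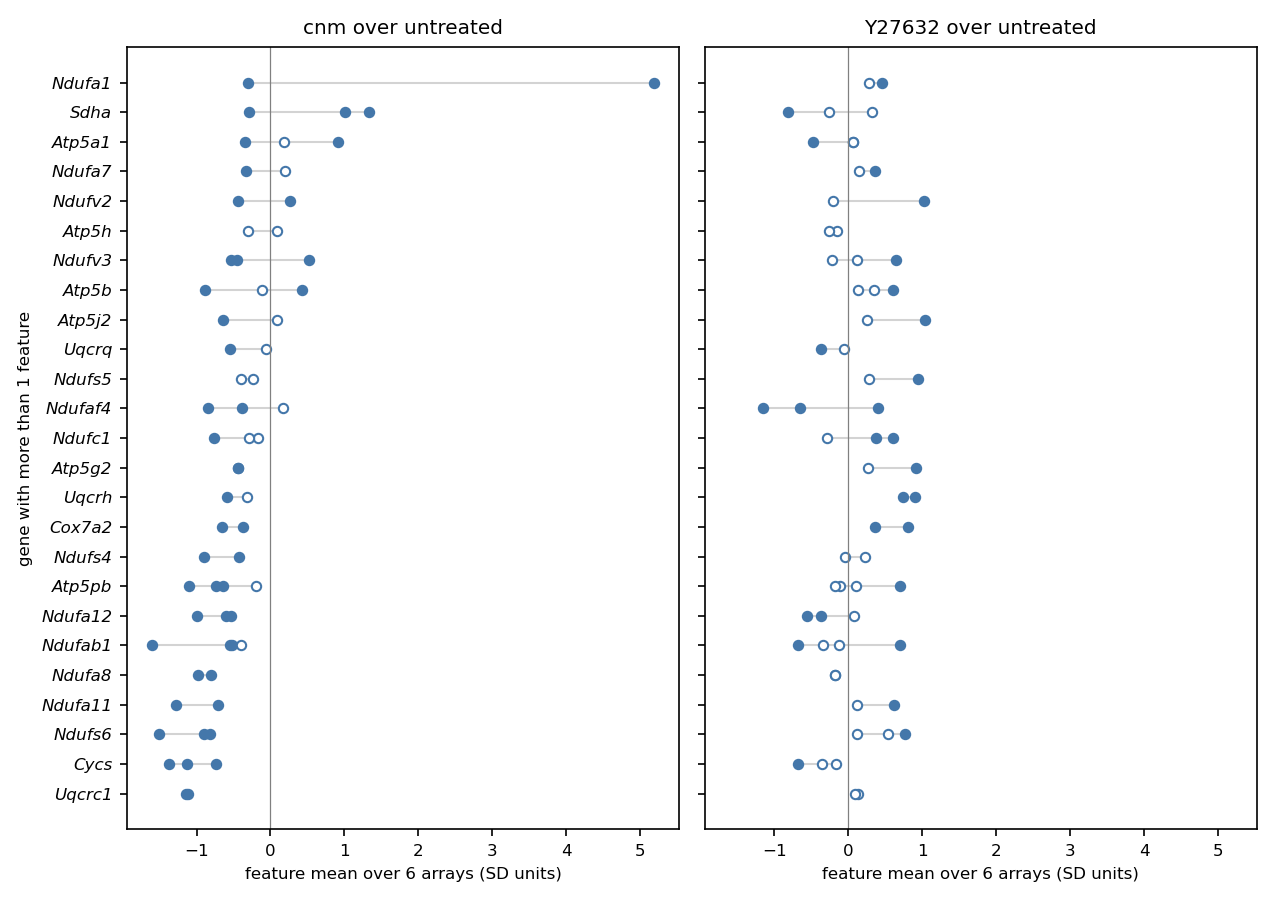
Mean over 6 arrays, in SD units, of every feature of the 25 genes with more than 1 feature, for cnm (left) and Y27632 (right), filled where the feature passed the adjusted p. The features of Ndufa1 lie at 5.19 and -0.30 with cnm.

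The treatments were compared directly in a fit over all 12 arrays. Of the 92 genes, 59 were lower with cnm than with Y27632 and 8 were higher, while 27.6% and 22.5% of all genes were. The median difference was -0.65 SD units, against -0.06 for all genes. By complex, 30 of 43 genes were lower in complex I, 1 of 4 in complex II, 5 of 9 in complex III, 11 of 18 in complex IV and 11 of 17 in complex V. An SD unit need not have the same size in both experiments. Whether the untreated cultures were shared is not stated.

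The largest negative difference was that of Atp5mpl, at -2.05 ± 0.18 (SE; limma adjusted p = 1.8e-06). It was followed by Ndufb7, Ndufa3, Ndufs6 and Atp5e, with differences of -1.65, -1.60, -1.55 and -1.36. The positive differences were led by Ndufa1, whose rise with cnm rested on 1 of its 2 features, at 2.07 ± 0.20 (SE). Next came Sdhb at 1.45, Ndufaf7 at 1.30, Sdha at 0.93 and Ndufa9 at 0.68. Sdha and Sdhb were thus higher with cnm than with Y27632, against the direction of most genes of the chain. For Sdha, 1 of its 3 features went the other way, at -0.29 with cnm and 0.33 with Y27632.

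**Figure D5:**
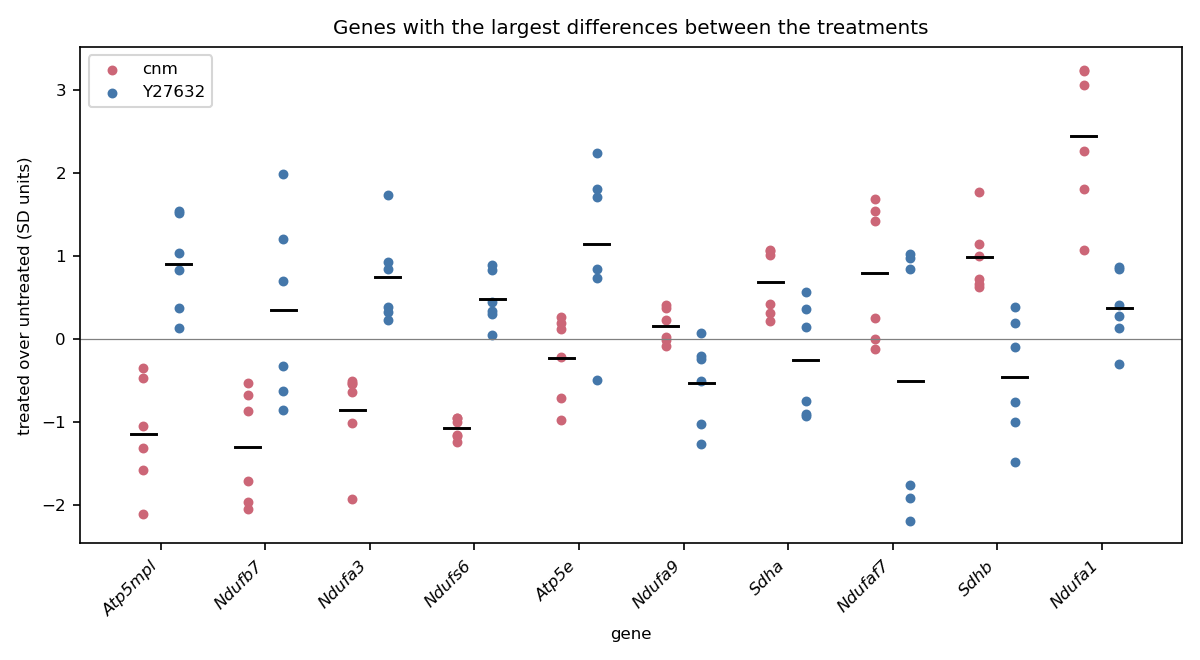
Values on each of the 6 arrays of a treatment (points) and their mean (line), in SD units, for the 10 genes with the largest differences between cnm and Y27632. The cnm and Y27632 points do not overlap for Atp5mpl, Ndufa3 and Ndufs6, which were lower with cnm, nor for Ndufa1 and Sdhb, which were higher with cnm.

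Other genes of mitochondria were counted in the same way. From each list the gene with the smallest adjusted p in a treatment is named, which need not be typical of the list. Over all genes 36.7% fell and 27.6% rose with cnm, and 19.5% fell and 20.5% rose with Y27632. Among 78 genes of the mitochondrial ribosome, which makes the subunits encoded in the mitochondrial genome, 60 fell and 3 rose with cnm, at a median of -0.51. With Y27632 24 fell and 11 rose. Mrpl37 averaged -1.74 ± 1.06 with cnm (limma adjusted p = 1.03e-07), and Mrpl50 -0.91 ± 0.23 with Y27632 (limma adjusted p = 1.37e-04). Of 34 further assembly factors 20 fell and 4 rose with cnm. Uqcc2 of complex III was among those that fell, at -2.18 ± 1.09 (limma adjusted p = 9.05e-07). With Y27632 8 fell and 6 rose, or 23.5% and 17.6%, near the shares of all genes. Tmem126b of complex I averaged -1.21 ± 0.56 with Y27632 (limma adjusted p = 1.69e-04).

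The citric acid cycle, which feeds NADH and succinate into the chain, gave other counts, to be read beside the same shares of all genes. With cnm 2 of its 12 measured genes fell and 3 rose, at a median of 0.00, and Ogdh, a subunit of the oxoglutarate dehydrogenase, averaged 1.29 ± 0.75 (limma adjusted p = 2.4e-06). With Y27632 6 fell and none rose, and Dld averaged -1.19 ± 0.36 (limma adjusted p = 2.76e-05). Of 13 regulators of mitochondrial biogenesis 6 fell and 2 rose with cnm (46.2% and 15.4%), and 6 fell and 1 rose with Y27632 (46.2% and 7.69%). Polg, the mitochondrial DNA polymerase, averaged 1.23 ± 0.46 with cnm (limma adjusted p = 2.7e-06), and Gabpa, a transcription factor that binds promoters of respiratory genes, -0.81 ± 0.46 with Y27632 (limma adjusted p = 2.72e-04). Of 7 carriers and porins 5 fell and 1 rose with cnm, and 3 fell and 2 rose with Y27632. Opposite signs in the 2 orientations were found for 5 of the 7 with cnm and for all 7 with Y27632. Their median was 0.78 on the Cy3 arrays and -1.53 on the Cy5 arrays with cnm, and 0.69 and -1.77 with Y27632. The phosphate carrier Slc25a3 averaged 0.84 ± 0.21 with cnm (limma adjusted p = 4.34e-05), and the porin Vdac3 -0.87 ± 1.10 with Y27632 (limma adjusted p = 0.00138).

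Subunits encoded in the mitochondrial genome were represented by 2 features, found through their gene IDs after the values were known. The feature for ND4L, of complex I, averaged 1.45 ± 0.67 with cnm and 0.72 ± 0.51 with Y27632, and was above 0 on all 12 arrays. The feature for COX2, of complex IV, averaged 0.67 ± 0.86 and 0.31 ± 0.86, with arrays on both sides of 0. Neither was part of the 92 genes.

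Markers of cell types were counted as well. Over all genes 27.6% rose and 36.7% fell with cnm, and 20.5% rose and 19.5% fell with Y27632. Of 11 measured markers of the oligodendrocyte lineage 9 rose and 1 fell with each treatment. Of 8 neuronal markers 4 rose and 2 fell with cnm, and 1 rose and 6 fell with Y27632. Of 6 astrocyte markers 1 rose and 3 fell with cnm, and 4 rose and none fell with Y27632. Of 4 microglial markers 1 rose with cnm and 1 fell with Y27632, or 25% each, near the shares of all genes. The part of these markers in the values of the respiratory genes was not tested, and fewer cells of a type cannot be told apart from less RNA per cell.

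Promoters were examined because genes of the chain moved together with cnm. RefSeq promoter windows (build GRCm38.p6, 250 bases before to 50 after the start) were matched for 76 of the 92 genes. The motif of NRF1, a factor known for its sites in promoters of respiratory genes, was searched on both strands in 2 spellings, and the looser one was added after the counts of the strict one were known. The strict spelling, 2 GCGC half-sites around AT, was found in 7 of the 76 genes, or 9.21%, and in 1.07% of all 27025 genes of the table. The looser spelling, the same half-sites around NT, was found in 19 genes, or 25.0%, and in 5.19% of all genes. Among the matched genes, the strict spelling was in 7 of the 48 that fell with cnm, in 0 of the 23 that did not pass and in 0 of the 5 that rose, and the looser one in 12, 6 and 1 of them. The motif of ETS factors, CCGGAAGT, was in 6.58% against 4.31%, and that of YY1, AAGATGGCG, in 9.21% against 1.64%. A match describes the letters of a window, not binding.

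Sdha and Ndufa1 rose with cnm as means of their features, but each had 1 feature that passed as lower, at -0.29 and -0.30. The 200 bases before the start are shown for these 2 genes and for 2 that fell with cnm, Ndufs6 and Cox6a1, to set promoters of genes with opposite means side by side. Capitals mark matches of the looser NRF1 spelling on either strand. The windows of Ndufs6, Cox6a1, Sdha and Ndufa1 lie on the minus strand at chr13:73328483-73328682, chr5:115348959-115349158, chr13:74350241-74350440 and chrX:37191239-37191438, in this order.
Ndufs6: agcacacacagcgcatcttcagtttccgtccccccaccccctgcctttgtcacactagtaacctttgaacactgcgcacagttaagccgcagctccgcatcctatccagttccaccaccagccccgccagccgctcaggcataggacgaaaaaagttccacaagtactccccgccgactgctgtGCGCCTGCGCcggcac
Cox6a1: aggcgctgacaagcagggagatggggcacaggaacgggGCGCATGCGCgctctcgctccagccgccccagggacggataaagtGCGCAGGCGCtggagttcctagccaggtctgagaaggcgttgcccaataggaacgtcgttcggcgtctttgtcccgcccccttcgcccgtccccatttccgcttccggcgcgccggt
Sdha: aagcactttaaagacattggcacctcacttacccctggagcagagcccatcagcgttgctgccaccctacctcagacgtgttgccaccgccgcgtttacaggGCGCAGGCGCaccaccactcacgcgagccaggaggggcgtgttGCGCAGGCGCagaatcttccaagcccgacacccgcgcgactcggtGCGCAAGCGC
Ndufa1: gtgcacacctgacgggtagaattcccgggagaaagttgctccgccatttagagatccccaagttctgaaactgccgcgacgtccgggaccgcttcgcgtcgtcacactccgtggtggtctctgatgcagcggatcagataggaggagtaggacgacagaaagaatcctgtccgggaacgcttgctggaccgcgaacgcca
Sdha, which rose, held 3 matches, Cox6a1 held 2 and Ndufs6 held 1, and the window of Ndufa1 held none.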

How the data were processed

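RNA of Oli-neu cells was isolated with Trizol, treated with DNase I, amplified by PCR with a SMART kit, labelled with Cy3 and Cy5 and hybridised to Agilent 44K mouse arrays. The authors extracted intensities, replaced saturated features by those of a low gain scan and applied loess normalization. The deposited values are scores, standardized log ratios with an SD of 1 on each array, whose sign was already turned to 1 direction for both dye orientations. They were negated here.

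Of 44290 features 41230 had values on all arrays, and 31700 of the features named 1 gene. A gene was the mean of its features. For each treatment limma 3.58.1 (R 4.3.3) fitted the mean of 6 arrays and a dye term, with Benjamini-Hochberg adjustment over 19087 genes and a threshold of 0.05. Treatments were compared in 1 fit over 12 arrays. Single genes were also tested by exact sign-flip permutation over 64 sign patterns. The fit was tested on simulated data. Errors after ± are SDs over 6 arrays unless named SE. Precision is limited by the number of arrays.

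The genes named were the 5 highest and lowest per treatment, the extremes of each complex, the largest differences between treatments, the Sdh genes, Cyc1, Cycs, isoform sets and the genes with the widest feature spread. From each other mitochondrial list, the gene with the smallest adjusted p per treatment was named. Other genes were counted only. The members and lists were chosen with earlier results of these data known. Ndufa4l2 was not analysed here. Alternatives were the dye term, each orientation alone, centring, quantile normalization, feature medians, features one by one, moderation, a floor of 0.5 SD units, structural subunits only, the replicate block, scaling between experiments, and leaving out each array. Promoter motifs were searched with Python. Figures were drawn with matplotlib.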

Additional observations from a re-analysis of the deposited data

Results flagged for a closer look

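Among 89 sets of 6 arrays tested for a single distant value, 3 held one, and chance alone marks about 1 in 20 such sets. Cox6b2 with cnm had 0.40 on replicate 5, where the nearest other array had -0.07. Ndufa3 with cnm had -1.92 on replicate 1, with the nearest at -1.01. Ndufab1 with Y27632 had -0.91 on replicate 3, with the nearest at -0.16.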

How the results depend on the processing

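With cnm, 59 genes fell and 7 rose. Without the dye term 33 fell and 3 rose, against 16.4% and 14.9% of all genes. On the Cy3 arrays alone 37 fell and 18 rose, against 27.8% and 28.4%, with at least 0.5 SD units 37 fell and 4 rose, and with features one by one 4 rose. Leaving out each array gave 57 to 63 lower, 5 to 8 higher and a median of -0.44 to -0.38. With Y27632, 27 rose and 9 fell. Without the dye term 4 rose and 0 fell, against 6.46% and 5.58%. On the Cy3 arrays alone 43 rose and 12 fell, against 28.9% and 21.7% of all genes, and on the Cy5 arrays alone 18 rose and 22 fell, against 20.1% and 24.6%. With at least 0.5 SD units 17 rose and 2 fell. Without moderation 4 fell, against 14.9% of all genes. With features one by one 5 fell, and among structural subunits 4, or 4.76%, against 19.5% of all genes. Shares of all genes are not given here for the floor of 0.5 SD units or for features one by one. Leaving out each array gave 20 to 27 higher and a median of 0.12 to 0.15, and 4 to 11 lower, with 5 without replicate 2, 5 without replicate 4 and 4 without replicate 6. In the comparison of treatments 23 were lower and 3 higher without the dye term, against 11.1% and 9.69% of all genes, and leaving out each array gave 52 to 59 and 7 to 9. The cause was not tested. Centring and quantile normalization kept every count of calls within 1.5 times.

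With the replicate block 56 genes were lower and 8 higher, against 26.5% and 21.5% of all genes. Arrays with the same number correlated at -0.03 to 0.08 in their deviations from the orientation means. Whether they share more than a number cannot be read from this, since anything common to the arrays of an orientation leaves with its mean.

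Over all alternatives, the named genes kept their sign and their side of the threshold in 982 of 1157 values, lost the call in 91 and gained one in 34. The sign changed in 50, of which 36 were in single orientations and 14 in other settings, the latter with no call on either side (Cox7a2l with cnm; Atp5g1, Cox7a2l, Cox8c, Ndufab1, Sdhc and Sdhd with Y27632). In 21 of the 50 the value or its alternative was called, all in single orientations. With cnm, on the Cy3 arrays, Atp5b was at 0.89, Atp5g2 at 0.31, Cox6a2 at -0.10, Cox7b at 0.31 and Sdhd at 0.38, and on the Cy5 arrays Uqcrfs1 was at -0.28. With Y27632, on the Cy3 arrays, Atp5g3 was at -0.76, Cox6a2 at -0.47, Cox7a2l at -0.34, Cycs at 0.75, Ndufb7 at -0.60, Ndufv2 at -0.16, Sdhb at 0.16, Sdhd at 0.77 and Vdac3 at 0.081. On the Cy5 arrays Atp5g2 was at -0.0033, Cox4i1 at -0.42, Cox6a1 at -0.96, Cox7b at -0.013, Ndufaf4 at 0.013 and Ndufaf7 at 0.95.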
